A study of Sorghum bicolor with 12 samples.

Results

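The loci described here encode enzymes that make and interconvert nucleotide sugars and enzymes that act on the sugars of the cell wall in sorghum seedlings. They were chosen by the words of their annotation from the carbohydrate metabolism list that accompanies the study, and 33 of its 367 loci matched. Each of the 33 had 1 probe on the arrays, which held 41977 probes in all. The match was on letters, so 5 of the 33 belong to other pathways and were kept as members under that name. They encode an aldose 1-epimerase, a ribulose-phosphate 3-epimerase, both subunits of a GDP-forming succinyl-CoA ligase and a 6-phosphogluconate dehydrogenase.

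The sweet cultivar Keller and the grain cultivar BTX623 were grown to 14 days in a greenhouse under natural light. Whole seedlings were collected, washed in water and then placed in 5% sucrose solution. Samples were taken at 0 h, 2 h and 6 h from each cultivar, with 2 arrays in each of the 6 groups, biological replicates in the study's terms, which makes 12 arrays. All groups belong to unmodified plants of these cultivars, and the 0 h seedlings stand for the state before sucrose. No group spent 2 h or 6 h without sucrose. Sucrose, the handling and immersion of the seedlings, elapsed time and hour of the day therefore cannot be told apart in any comparison of times.

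Nucleotide sugars are the activated sugars from which plants build polysaccharides, glycoproteins and glycolipids. UDP-glucose is the hub. Epimerases turn it into UDP-galactose, a dehydrogenase oxidises it to UDP-glucuronate, and from UDP-glucuronate come the UDP-galacturonate, UDP-xylose and UDP-arabinose of pectin and xylan. A second set starts from mannose 6-phosphate and gives GDP-mannose, from which GDP-fucose and, through L-galactose, ascorbate (vitamin C) are made. After deposition, pectin methylesterases remove methyl groups from wall pectin, and galactosidases trim galactose from wall polymers and soluble sugars.

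Values are given as scaled signal, which is the background-subtracted intensity of a probe as a percentage of the 75th percentile of its array. A value of 100 therefore equals that percentile. Differences are on the log2 scale with the standard error (SE) of the limma model fitted over all 12 arrays. A locus was called where the Benjamini-Hochberg adjusted p over all 31947 tested probes was under 0.05 and the difference was at least 2-fold. Of the 33 loci, 32 were well above background on all 12 arrays and were tested. Only the pectinesterase family locus Sb08g018360 was not, with 0 of 12 arrays above background and a scaled signal of 0.385 to 1.48, so it has no measured change. Levels of different probes are not comparable with each other, and each locus is set only against itself.

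Slide 1, with 4 arrays, was the dimmest, with 75th percentiles between 323 and 400 intensity units, against 549 to 677 for the 8 arrays of slides 2 and 3. Between 28319 and 34609 probes of an array were well above background. Replicates of a group correlated at 0.937 to 0.967 over the tested probes (Pearson, log2). All 4 marker probes of the tissues in a whole seedling were well above background on every array. The 2 leaf markers were a Rubisco small chain and a locus annotated as NADP-dependent malic enzyme, with no isoform named. Together they summed to between 9322 and 11418 at 6 h, against 13109 to 18291 at 0 h. The 2 root cap markers summed to between 973 and 1172 at 6 h, against 677 to 909.8 at 0 h.

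After 6 h in sucrose, 4 of the 32 tested loci had fallen and none had risen over both cultivars. They encode a UDP-glucose pyrophosphorylase, a mannose-6-phosphate isomerase, a UDP-glucuronate 4-epimerase and a UDP-galactose epimerase, which stand at 4 different points of the nucleotide sugar network. The share called was 12.5%, against 9.12% of all tested probes (5.45% lower and 3.67% higher) and 10.6% of the 321 other tested loci of the carbohydrate list, where 15 rose and 19 fell. The share of the 32 loci is near this background. The median difference over the 32 loci was -0.09, with 19 negative and 13 positive, against 0.02 over all tested probes. In 8 of the 32 loci the 4 arrays of 6 h and the 4 arrays of 0 h did not overlap, with 7 below and 1 above, and 20.5% of all tested probes did not overlap in this way.

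The UDP-glucose pyrophosphorylase locus Sb04g001320, whose product forms UDP-glucose from glucose 1-phosphate, lies on the minus strand of chromosome 4 from 1125073 to 1129206 (the gene list names no genome build). In Keller it had 159.9 and 131 at 0 h, 102 and 104 at 2 h, and 44.3 and 52.9 at 6 h. BTX623 gave 116 and 158 at 0 h, 72.7 and 104 at 2 h, and 41.0 and 51.1 at 6 h. All 4 arrays of 6 h were therefore below every array of 2 h, and those in turn below every array of 0 h. The locus fell by 1.57 on the log2 scale at 6 h (SE 0.19, limma adjusted p = 0.0019), a 2.97-fold change. At 2 h the difference was -0.57 (adjusted p = 0.16) and was not called. In a sample of whole seedlings, fewer cells of a type and less RNA per cell cannot be told apart, and this holds for each change given here.

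Mannose-6-phosphate isomerase, which draws fructose 6-phosphate into the mannose and ascorbate pathway, is encoded by Sb05g023560 (plus strand of chromosome 5, 56271994 to 56275528). It showed another time course. Keller seedlings gave 44.3 and 56.3 at 0 h, 37.3 and 53.1 at 2 h, and 16.3 and 16.7 at 6 h. In BTX623 the values were 47.3 and 47.8 at 0 h, 28.8 and 51.3 at 2 h, and 10.2 and 13.5 at 6 h. The 2 h arrays overlapped with the 0 h arrays, and the 6 h arrays lay below all others. The locus fell by 1.81 at 6 h (SE 0.23, limma adjusted p = 0.0024), a 3.5-fold change and the largest among the 4 called loci, while at 2 h the difference was -0.24 (adjusted p = 0.65).

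The UDP-glucuronate 4-epimerase locus Sb04g035630 (plus strand of chromosome 4, 65534416 to 65536672) encodes the enzyme that makes UDP-galacturonate, the donor of the pectin backbone. Its fall was already present at 2 h. The arrays of Keller had 591 and 584 at 0 h, 266 and 244 at 2 h, and 241 and 268 at 6 h, and those of BTX623 had 509.9 and 742 at 0 h, 272 and 312 at 2 h, and 195 and 311 at 6 h. Every array at 2 h or 6 h was below every array at 0 h, and the 2 h and 6 h arrays overlapped. The locus fell by 1.14 at 2 h (SE 0.20, limma adjusted p = 0.022) and by 1.26 at 6 h (SE 0.20, adjusted p = 0.0050). It was the only 1 of the 32 loci called at 2 h over both cultivars (3.12%), where 2.44% of all tested probes were called, 1.46% as lower. Within BTX623 and within Keller none of the 32 was called at 2 h, against 0.182% and 0.16% of all tested probes, and 5 had an unadjusted p under 0.05 in each, against 3507 and 2942 of all tested probes. At 2 h the arrays of 3 loci did not overlap with those of 0 h, which were this one, Sb04g001320 and the UDP-glucose 4-epimerase Sb07g018840, against 12.6% of all tested probes. Leaving out any 1 of 7 arrays ended the 2 h call of Sb04g035630. They were the 4 arrays of 2 h, both Keller arrays of 0 h and BTX623 0 h replicate 2. Each of these omissions left a lone array in a group, and fewer of all tested probes were called at 2 h too.

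Sb02g030500 (minus strand of chromosome 2, 65556520 to 65558938), annotated as a UDP-galactose epimerase that interconverts UDP-glucose and UDP-galactose, was the fourth. In Keller it had 47.8 and 60.2 at 0 h, 33.9 and 36.9 at 2 h, and 31.5 and 33.4 at 6 h. BTX623 had 91.2 and 101 at 0 h, 47.4 and 47.9 at 2 h, and 32.9 and 39.9 at 6 h. The BTX623 arrays were above the Keller arrays at 0 h and 2 h, and at 6 h the cultivars overlapped. The locus fell by 1.07 at 6 h over both cultivars (SE 0.16, limma adjusted p = 0.0042), and the difference of -0.81 at 2 h passed the p (0.034) but not the 2-fold minimum. At 6 h it stayed under the adjusted p of 0.05 but just short of 2-fold without BTX623 6 h replicate 1 (adjusted p = 0.020) and without Keller 0 h replicate 2 (adjusted p = 0.015).

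**Figure D1:**
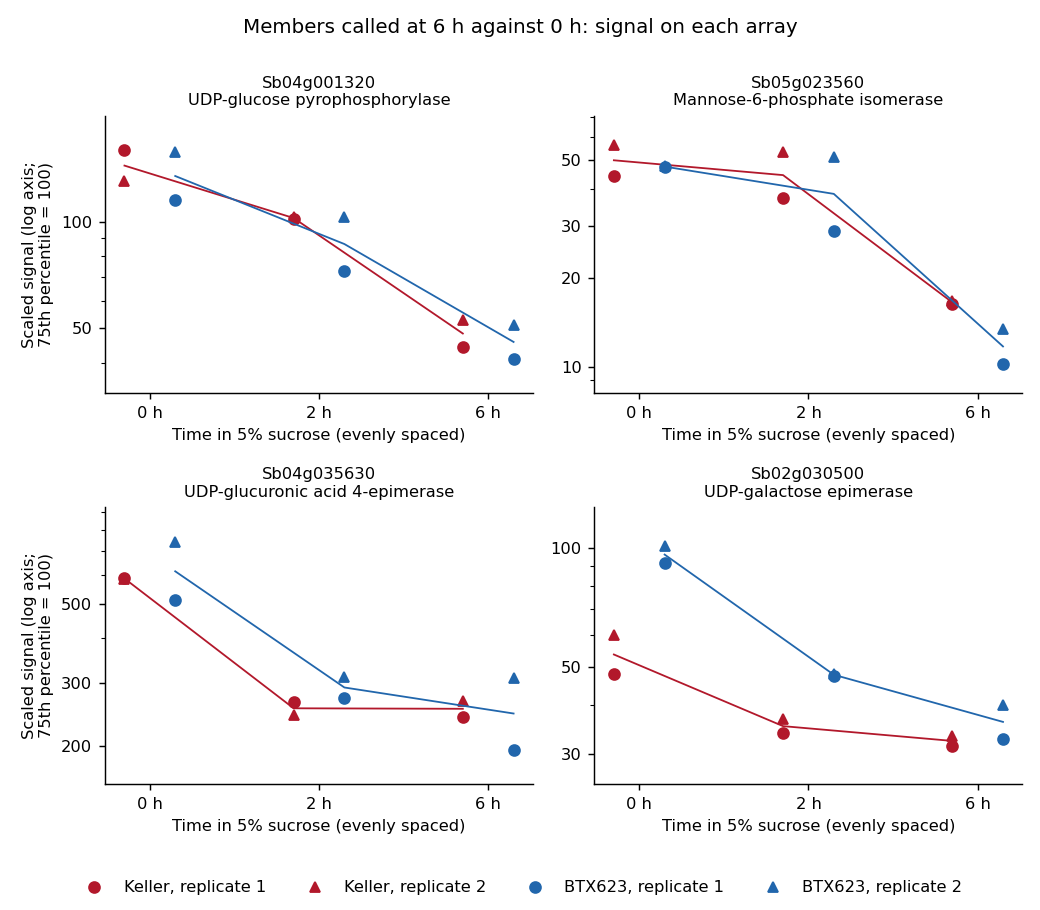
Scaled signal (log axis, 75th percentile of the array = 100) of the 4 loci called at 6 h, by time in sucrose. Each point is 1 array, colours are the cultivars, symbols the replicates, and lines join the geometric means of the 2 replicates. In each panel the 4 arrays of 6 h lie below the 4 arrays of 0 h, and Sb04g035630 is already low at 2 h.

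Within BTX623 alone the same 4 loci were called at 6 h, against 2.97% of all tested probes (1.98% lower). They fell by 2.02 (Sb05g023560), 1.56 (Sb04g001320), 1.41 (Sb02g030500) and 1.32 (Sb04g035630), with limma adjusted p from 0.019 to 0.042. Within Keller 2 loci were called, against 2.2% of all tested probes (1.54% lower). These were Sb05g023560, which fell by 1.60 (adjusted p = 0.047), and Sb04g001320, which fell by 1.58 (adjusted p = 0.025). The Keller values of the other two were -1.21 for Sb04g035630 (adjusted p = 0.063) and -0.73 for Sb02g030500 (adjusted p = 0.14).

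The difference between the cultivars in these changes was itself tested. No locus was called, and none of all tested probes was (0%). The cultivar difference of the 6 h change, Keller minus BTX623, was 0.68 for Sb02g030500 and 0.42 for Sb05g023560, each with adjusted p = 1. At an unadjusted p under 0.05 it had 0 of the 32 loci and 318 of all tested probes. Leaving out any 1 of the 4 arrays compared ended each of the 6 calls within 1 cultivar. Each such omission left a lone array in a group, and fewer of all tested probes were called too. It therefore cannot show whether a call rests on 1 array.

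Arrays of equal replicate number deviated from their group means together, so a fit with a replicate block was also made, and over both cultivars it called 5 loci at 6 h (15.6%), with 13% of all tested probes called. The added locus was Sb10g025880, a GDP-L-fucose synthase. In Keller the blocked fit called 3 loci at 6 h, the third being Sb04g035630, which fell by 1.21 (adjusted p = 0.015), and it called 7.67% of all tested probes there. At 2 h over both cultivars it called 2, Sb04g035630 and the pectinesterase family locus Sb01g022290, which rose by 1.57 in that fit (adjusted p = 0.013). It called 5.64% of all tested probes there, so the share of the 32 loci (6.25%) was near the background. Within a cultivar the blocked fit also called Sb02g030500 and Sb04g035630 at 2 h in BTX623, Sb04g035630 at 2 h in Keller, and Sb02g042960 at 6 h in BTX623, with 2.39%, 1.66% and 9.25% of all tested probes called in these comparisons. Within slide 1 the Keller 6 h array differed from the 0 h array by -1.85 for Sb04g001320, -1.44 for Sb05g023560, -1.30 for Sb04g035630 and -0.60 for Sb02g030500. Within slide 3 the BTX623 arrays of the same times differed by -1.63, -1.83, -1.26 and -1.34 for these loci in the same order.

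The marker locus annotated as NADP-dependent malic enzyme fell by 1.57 at 6 h as well (adjusted p = 0.0046). The Rubisco small chain differed by -0.51 (adjusted p = 0.086). The root cap markers differed by 0.37 and 0.42 (adjusted p = 0.17 and 0.094). The part that a change in the make-up of the seedling RNA has in the 4 falls was not tested.

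**Figure D2:**
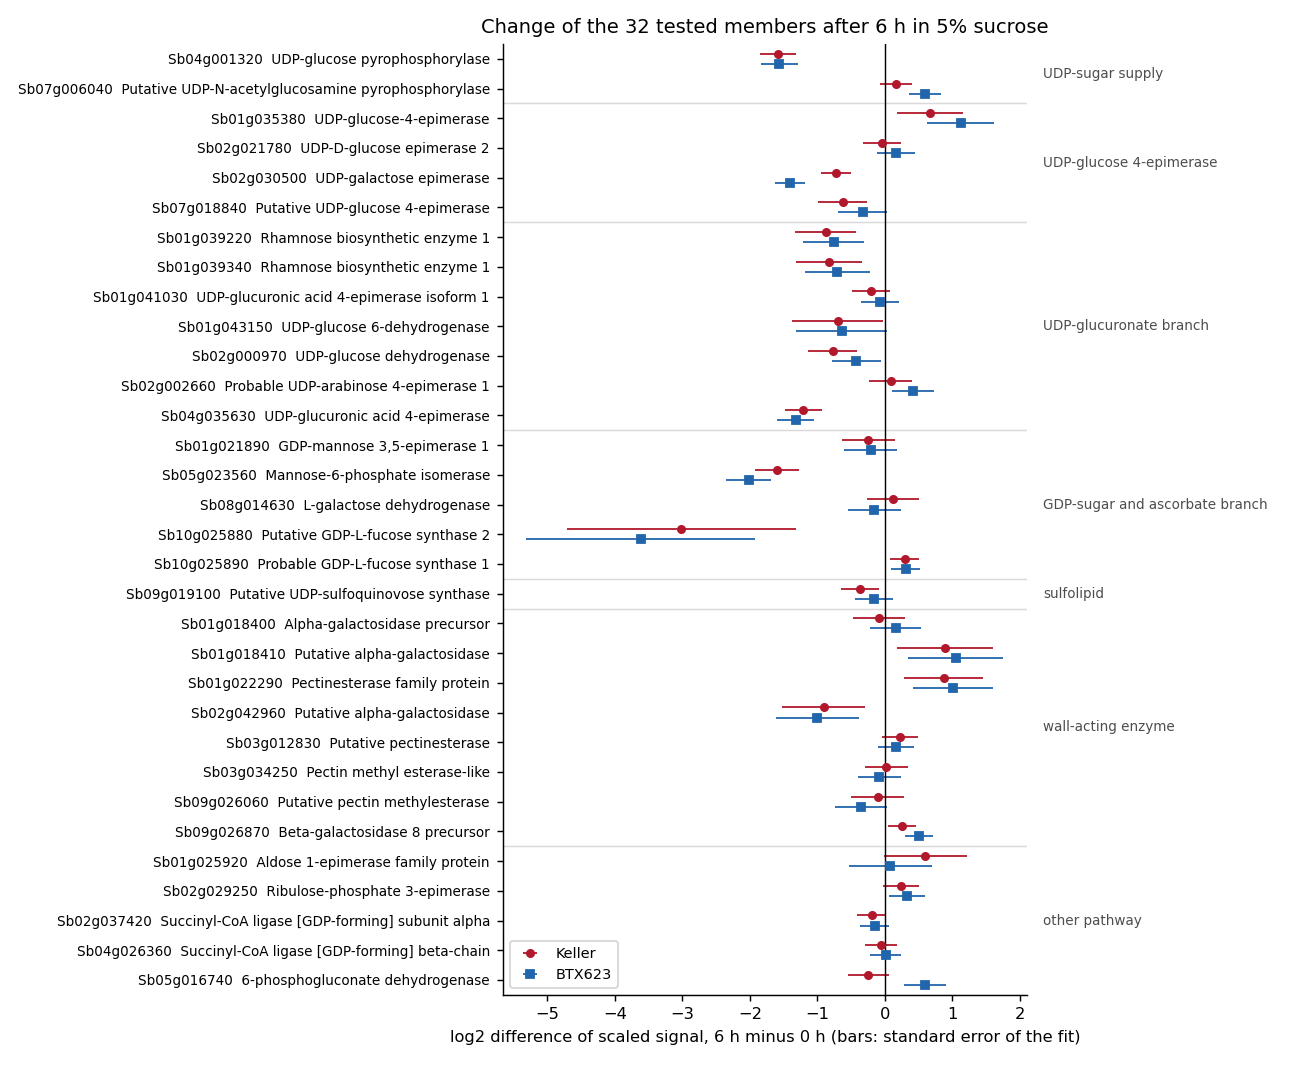
Log2 difference of the scaled signal, 6 h minus 0 h, for the 32 tested loci ordered by role, in Keller (circles) and BTX623 (squares), with bars for the standard error of the fit. The 4 called loci lie between -0.73 and -2.02, and the GDP-L-fucose synthase Sb10g025880 lies at -3.01 in Keller and -3.62 in BTX623 with the widest bars.

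The supply of UDP-sugars had a second locus, Sb07g006040. It encodes a UDP-N-acetylglucosamine pyrophosphorylase, which makes the donor for N-linked glycans. Its arrays ranged from 158 to 212 at 6 h, against 116 to 168 at 0 h, and the difference was 0.38 (adjusted p = 0.17), opposite in sign to that of the UDP-glucose pyrophosphorylase.

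Of the 4 UDP-glucose 4-epimerases, only Sb02g030500 was called at 6 h, and the others had differences of either sign. Sb01g035380 had 387 and 337 at 0 h, 328 and 419.7 at 2 h, and 357 and 925 at 6 h in Keller, and 549 and 523, 534 and 596, and 739 and 1835 at these times in BTX623. Its 6 h values were high in replicate 2 of both cultivars, and the Keller replicate 1 array lay within the range of 0 h. The difference was 0.89 (SE 0.35, adjusted p = 0.13). Sb07g018840 was lower on all 4 arrays of 6 h (207 to 265) than on any array of 0 h (266 to 386), with a difference of -0.48 (adjusted p = 0.26), and it was lower still at 2 h (-0.89, adjusted p = 0.11). Sb02g021780 stayed between 15.1 and 21.8 on all 12 arrays, with differences of 0.19 at 2 h and 0.06 at 6 h.

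In the UDP-glucuronate branch, which here includes the rhamnose loci, 6 of 7 loci had a negative difference at 6 h, with a median of -0.67, and 1 was called. The same number was negative under each of the 3 other scalings, which use the same arrays. Of all tested probes, 15563 were negative and 16383 positive. UDP-glucose dehydrogenase, which commits UDP-glucose to this branch, is encoded by 2 of the loci. Sb01g043150 differed by -0.67 (adjusted p = 0.39) and Sb02g000970 by -0.60 (adjusted p = 0.16) at 6 h, while at 2 h both differences were positive, 0.57 (adjusted p = 0.58) and 0.33 (adjusted p = 0.56). The rhamnose biosynthetic enzymes Sb01g039220 and Sb01g039340, which turn UDP-glucose into UDP-rhamnose, lie 93343 bases apart on chromosome 1. At 6 h they differed by -0.82 (adjusted p = 0.12) and -0.77 (adjusted p = 0.18). For these 2 loci and Sb01g043150 the fall lay mainly in replicate 1, whose 0 h arrays were high. Within replicate 2, the 0 h and 6 h signals of Sb01g043150 were 588 and 533 in Keller and 515 and 528 in BTX623. Those of Sb01g039220 were 941 and 901 in Keller and 1054 and 906 in BTX623. Those of Sb01g039340 were 238 and 230 in Keller and 362 and 332 in BTX623. The second UDP-glucuronate 4-epimerase, Sb01g041030, differed by -0.14 (adjusted p = 0.69), and the difference between the 2 loci of this step was not tested. The exception in sign was the UDP-arabinose 4-epimerase Sb02g002660, with 0.25 (adjusted p = 0.51).

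In the branch through GDP-mannose to GDP-fucose and ascorbate, mannose-6-phosphate isomerase was the 1 called locus of 5. GDP-mannose 3,5-epimerase (Sb01g021890), which makes GDP-L-galactose for ascorbate, had arrays from 635 to 929 at 6 h, against 596 to 1369 at 0 h, and a difference of -0.23 (adjusted p = 0.64). L-galactose dehydrogenase (Sb08g014630), a later step to ascorbate, differed by -0.02 (adjusted p = 0.98). Neither of these 2 loci passed the test in any of the comparisons made. A VTC2 locus outside the members, Sb08g005410, differed by -1.08 at 6 h (SE 0.45, limma adjusted p = 0.15). That is over 2-fold, but it was not called.

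The 2 loci of GDP-L-fucose synthase, the last step to GDP-fucose, are neighbours on chromosome 10, with 21991 bases between them. Sb10g025880 (minus strand, 55200353 to 55201764) had 1683 and 43.0 at 0 h in Keller, then 151 and 90.2 at 2 h and 29.0 and 38.3 at 6 h. BTX623 gave 1776 and 73.9 at 0 h, 152 and 156 at 2 h, and 23.2 and 37.4 at 6 h. Replicate 1 of 0 h was thus far above every other array in both cultivars. Both replicate 2 arrays of 0 h were below every array of 2 h. From 0 h to 2 h the signal fell in replicate 1 and rose in replicate 2 of each cultivar. The difference at 6 h was -3.32, the largest of the 32 loci, but its SE was 1.19 and the limma adjusted p was 0.10. With the replicate block the SE was 1.05 and the locus was called at adjusted p = 0.048. It was also called without Keller 0 h replicate 2 (-4.64, adjusted p = 0.024) and without BTX623 0 h replicate 2 (-4.46, adjusted p = 0.037). Within replicate 1 the 6 h minus 0 h differences were -5.86 in Keller and -6.26 in BTX623, against -0.17 and -0.98 within replicate 2.

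Its neighbour Sb10g025890 (plus strand, 55223756 to 55224833) had no such split. In Keller it had 303 and 306 at 0 h, 376 and 305 at 2 h, and 387 and 360.3 at 6 h, and in BTX623 204 and 268, 298 and 271, and 288 and 292 at these times. The difference at 6 h was 0.30 (SE 0.15, adjusted p = 0.22). Across the 12 arrays the log2 values of the 2 neighbours had a Pearson r of -0.52, a description of arrays that share groups and slides.

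**Figure D3:**
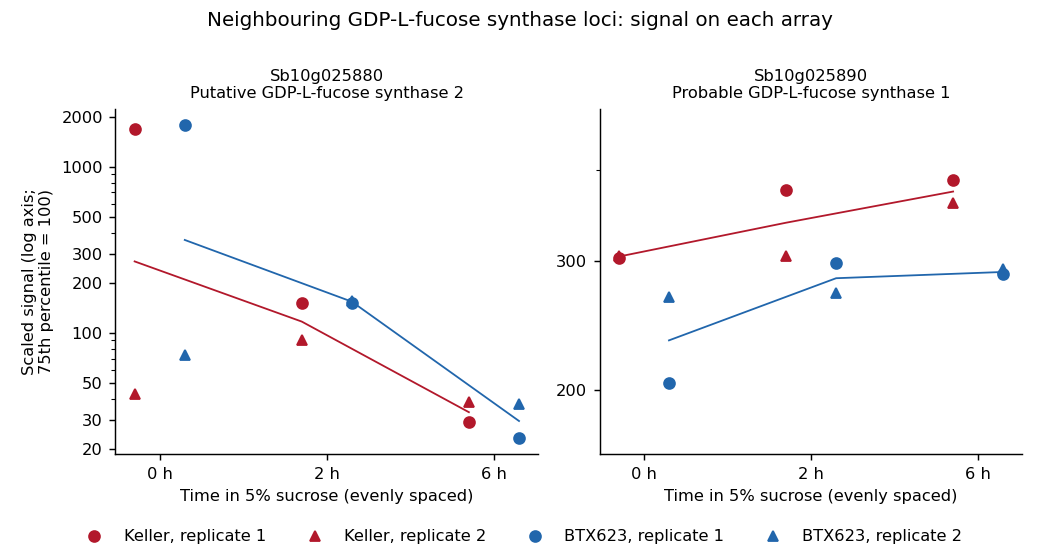
Scaled signal (log axes) of the neighbouring GDP-L-fucose synthase loci by time, 1 point per array, with lines through the geometric means of the replicates. For Sb10g025880 the replicate 1 arrays of 0 h lie at 1683 and 1776, against 43.0 and 73.9 for replicate 2, and Sb10g025890 stays between 204 and 387.

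This split between replicates at 0 h was shared by other wall sugar loci. In 5 of the 32 loci replicate 1 was at least 2-fold above replicate 2 at 0 h in both cultivars, and in 0 it was the other way. Of all tested probes, 5.24% were at least 2-fold higher in replicate 1 in both cultivars and 5.75% in replicate 2. Beside Sb10g025880 they were the UDP-glucose dehydrogenase Sb01g043150, both rhamnose biosynthetic enzymes and the pectinesterase family locus Sb01g022290. Sb01g043150 had 1759.9 and 588 at 0 h, 2025 and 1640.1 at 2 h, and 734 and 533 at 6 h in Keller, and 2131 and 515, 1407 and 1198, and 856 and 528 in BTX623. The arrays of 2 h and of replicate 1 at 0 h lay between 1198 and 2131, and the other 6 arrays between 515 and 856.

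The rhamnose loci had the same split with smaller sizes. Sb01g039220 had 2377 and 941 at 0 h in Keller and 2198 and 1054 in BTX623, and Sb01g039340 had 644 and 238 in Keller and 859.7 and 362 in BTX623. At 2 h and 6 h the replicates of these loci differed by at most 0.29 on the log2 scale in every group. Over the 12 arrays the log2 values of the pair had a Pearson r of 0.918, and whether either probe also binds the transcript of the other locus was not tested. Without Keller 0 h replicate 2 the 6 h comparison called both, with adjusted p of 0.033 for Sb01g039220 and 0.047 for Sb01g039340. Both replicate 1 arrays of 0 h lay on slide 1, and those of replicate 2 on slides 2 and 3, so replicate number and slide cannot be told apart here. Whether equal replicate numbers stand for the same planting is not stated.

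**Figure D4:**
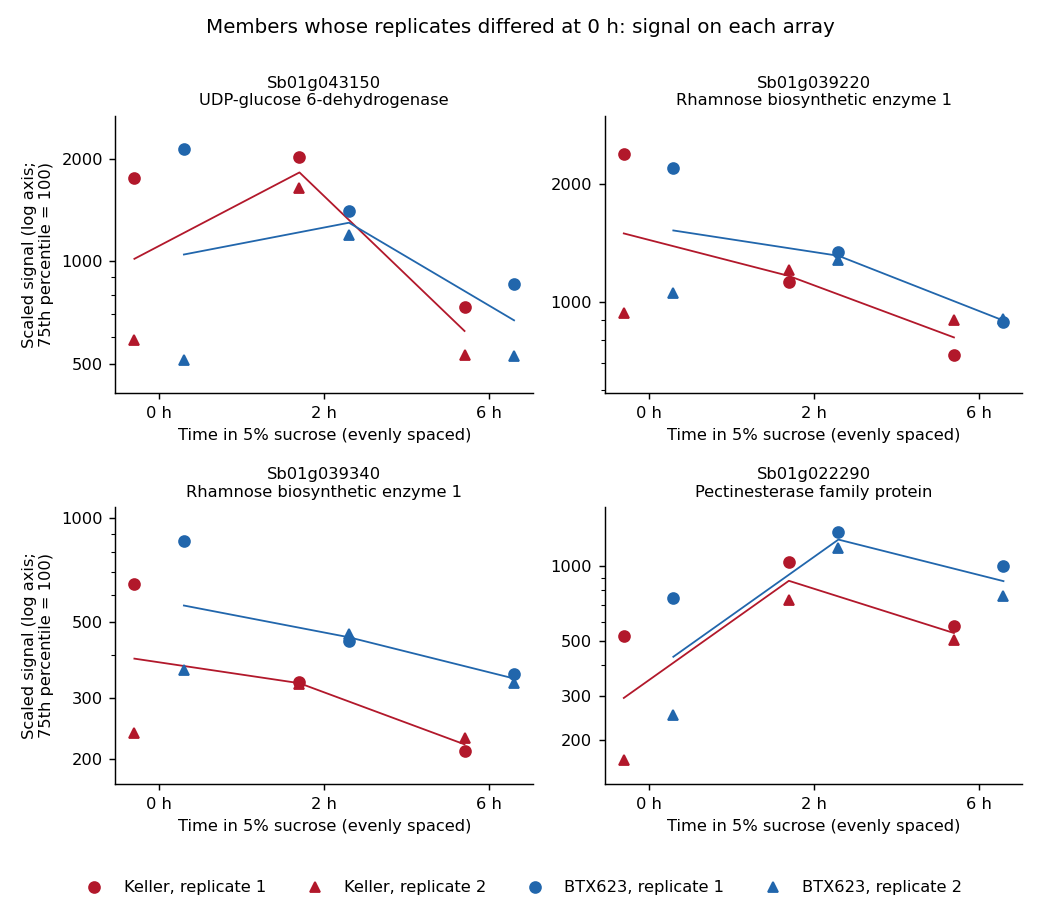
Scaled signal (log axes) of Sb01g043150, Sb01g039220, Sb01g039340 and Sb01g022290 by time, 1 point per array, with lines through the geometric means of the replicates. At 0 h replicate 1 (circles) lies at least 2-fold above replicate 2 (triangles) in both cultivars in each panel, and at 2 h and 6 h the replicates are closer.

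Among the enzymes that act on the wall and on soluble galactosides, none of 8 tested loci was called by limma at 2 h or 6 h, where 4 and 1 of them had an unadjusted p under 0.05, against 5867 and 9403 of all tested probes. The pectinesterase family locus Sb01g022290 (plus strand of chromosome 1, 27497109 to 27499952) came nearest at 2 h. It had 526 and 166 at 0 h, 1041 and 736 at 2 h, and 574 and 506 at 6 h in Keller, and 743 and 252, 1381 and 1189.5, and 1001 and 759.7 in BTX623. The highest value of each replicate number in each cultivar was at 2 h, but Keller 2 h replicate 2 lay just below BTX623 0 h replicate 1. The difference at 2 h was 1.57 (SE 0.42, adjusted p = 0.088), and at 6 h it was 0.94 (SE 0.42, adjusted p = 0.17). Without BTX623 0 h replicate 1 the locus was called at 2 h, with 1.96 (adjusted p = 0.041). The other 3 tested pectin methylesterases had differences between -0.74 and 0.47 at 2 h and between -0.23 and 0.19 at 6 h.

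The alpha-galactosidases, which release galactose from raffinose sugars and galactomannan, had differences of either sign at 6 h. Sb01g018410 had 17.3 and 24.3 at 0 h, 9.40 and 14.8 at 2 h, and 20.5 and 70.6 at 6 h in Keller, and 30.7 and 43.4, 19.9 and 22.7, and 37.6 and 151 in BTX623. The 6 h values of replicate 2 were at least 2-fold above those of replicate 1 in both cultivars, as in 4.12% of all tested probes and in Sb01g035380, and the difference at 6 h was 0.97 (SE 0.50, adjusted p = 0.24). The locus is 9429 bases from Sb01g018400, and the study's gene lists pair these 2 as tandem duplicates. Sb01g018400 had 116 and 224 at 0 h, 109 and 146 at 2 h, and 130.2 and 176 at 6 h in Keller, and 121 and 199.8, 111 and 139, and 156 and 193 in BTX623. It differed by 0.03 at 6 h (SE 0.27, adjusted p = 0.95), and in every group replicate 2 was above replicate 1 for both neighbours. The log2 values of the pair had a Pearson r of 0.638 over the 12 arrays. The third alpha-galactosidase, Sb02g042960, differed by -0.95 at 6 h (SE 0.43, adjusted p = 0.18).

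The beta-galactosidase Sb09g026870, which releases galactose from beta-linked wall galactans, was the 1 locus whose 6 h arrays (48.9 to 58.8) all lay above its 0 h arrays (37.4 to 44.9). Its difference was 0.38 (SE 0.15, adjusted p = 0.12), which is under 2-fold.

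Between the cultivars no locus was called over the 3 times, where 5% of all tested probes were, nor at 0 h alone, where 2.18% were. At 2 h and at 6 h alone the count was also 0, against 2.34% and 2.21% of all tested probes. Over the times 10 of the 32 loci had an unadjusted p under 0.05, and 5707 of all tested probes did. At each single time 2 of the 32 had one, against 2585, 2794 and 2620 of all tested probes at 0 h, 2 h and 6 h. With the replicate block 5 loci passed an adjusted p of 0.05 over the times (15.6%), as did 13% of all tested probes, and none of the 5 reached 2-fold. They were Sb03g012830 (adjusted p = 0.0048), Sb05g016740 and Sb02g030500 (0.016 each), Sb09g019100 (0.025) and Sb09g026060 (0.040), whose values follow. The cultivars were not spread evenly over the slides. With the slide as a block only Sb09g019100 passed (-0.67, adjusted p = 0.012), 1 of the 32, as did 9.57% of all tested probes. For the others named here adjusted p in that fit ran from 0.053 to 0.15. In the fit without a block the median difference, Keller minus BTX623, was -0.04, with 15 positive and 17 negative, against 0.06 over all tested probes. Only 1 locus had 6 Keller arrays that did not overlap with the 6 BTX623 arrays, against 5.2% of all tested probes. It was Sb10g025890, with 303 to 387 in Keller and 204 to 298 in BTX623, and a difference of 0.33 (SE 0.12, adjusted p = 0.19). At a single time, with 2 arrays against 2, the cultivars did not overlap in 12 of the 32 loci at 0 h. The counts were 18 at 2 h and 14 at 6 h. Separation of the cultivars at a single time was thus common and carries little weight for the loci described below. Its share over all tested probes is not given.

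The 6-phosphogluconate dehydrogenase Sb05g016740, a pentose phosphate pathway enzyme, had the smallest adjusted p between the cultivars (0.058). Its signal in Keller was 3524 and 2880.3 at 0 h, 3706 and 4916 at 2 h, and 3175 and 2271 at 6 h, and in BTX623 1833 and 1358, 2605 and 2141, and 2914 and 1946. Both Keller arrays lay above both BTX623 arrays at 0 h and 2 h, and at 6 h the cultivars overlapped. The difference was 1.01 at 0 h, 0.85 at 2 h and 0.17 at 6 h, and 0.68 over the times (SE 0.18). The cultivar difference of the 6 h change was -0.84 and was not called (adjusted p = 1).

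Of the 4 tested pectin methylesterases, 3 had a positive difference, under each of the scalings tried, and none passed the test in the fit without a block. In that fit 18371 of all tested probes were positive and 13575 negative. The putative pectin methylesterase Sb09g026060 had 271 and 294, 219 and 114, and 334 and 205 at 0 h, 2 h and 6 h in Keller, and 147 and 186, 96.4 and 117, and 168 and 99.2 in BTX623. The cultivars overlapped only at 2 h, and the difference over the times was 0.79 (SE 0.23, adjusted p = 0.084). Sb03g034250, which the study's lists pair with it as a segmental duplicate, differed by 0.50 (SE 0.18, adjusted p = 0.18). Over the 12 arrays the log2 values of this pair had a Pearson r of 0.914, and cross-binding of their probes was not tested. Sb03g012830 had 869 and 804, 1337 and 1011, and 1118 and 853 in Keller, and 642 and 528, 924 and 690.2, and 742 and 571 in BTX623. At each time its Keller arrays were above the BTX623 arrays, with 0.55 over the times (SE 0.15, adjusted p = 0.078). The fourth tested locus of this kind, Sb01g022290, had the opposite sign, -0.60 (adjusted p = 0.42).

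On the side of BTX623, all 4 UDP-glucose 4-epimerases had a negative difference, from -0.73 for Sb01g035380 (SE 0.29, adjusted p = 0.22) to -0.03, in the fit without a block. So did 13575 of all tested probes, with 18371 positive. The sign of the 4 epimerases did not hold in every setting. Sb02g021780 was at 0.10 after normexp background correction. With the slide as a block Sb07g018840 was at 0.16 and Sb02g021780 at 0.04. For Sb02g030500 the difference without a block was -0.48 over the times (SE 0.13, adjusted p = 0.067), made up of -0.84 at 0 h, -0.43 at 2 h and -0.16 at 6 h. The alpha-galactosidase Sb01g018410 had the largest negative value, -0.89 (SE 0.41, adjusted p = 0.30). The UDP-sulfoquinovose synthase Sb09g019100, which makes the head group of the sulfolipid of plastid membranes, had 69.7 and 72.5, 57.6 and 59.0, and 60.7 and 49.9 in Keller, and 109 and 94.2, 94.0 and 64.2, and 113 and 73.4 in BTX623. The Keller arrays were below the BTX623 arrays at each time, with -0.55 over the times (SE 0.16, adjusted p = 0.095).

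The aldose 1-epimerase family locus Sb01g025920 depended on 1 array. Keller had 7.85 and 40.4 at 0 h, 26.7 and 33 at 2 h, and 23.5 and 30.7 at 6 h, and BTX623 had 38.5 and 38.0, 31.3 and 36.9, and 45.9 and 35.4. The Keller 0 h replicate 1 array was the lowest of the 12, and the difference over the times was -0.63 (SE 0.36, adjusted p = 0.42). Without Keller 0 h replicate 2 it was called, at -1.02 over the times (adjusted p = 0.0089) and at -2.29 at 0 h (adjusted p = 0.014), and this was the only setting to call any of the 32 loci between the cultivars.

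The other loci that matched by letters had small differences. The ribulose-phosphate 3-epimerase Sb02g029250, a pentose phosphate pathway enzyme, had a median of 145 and a highest value of 181 over the 12 arrays, with 0.28 at 6 h (adjusted p = 0.35). The alpha subunit of succinyl-CoA ligase, a citric acid cycle enzyme, is encoded by Sb02g037420, which ranged from 126 to 209.7 with -0.17 at 6 h (adjusted p = 0.49). Its beta chain, Sb04g026360, ranged from 241 to 368 with -0.02 (adjusted p = 0.95).

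**Figure D5:**
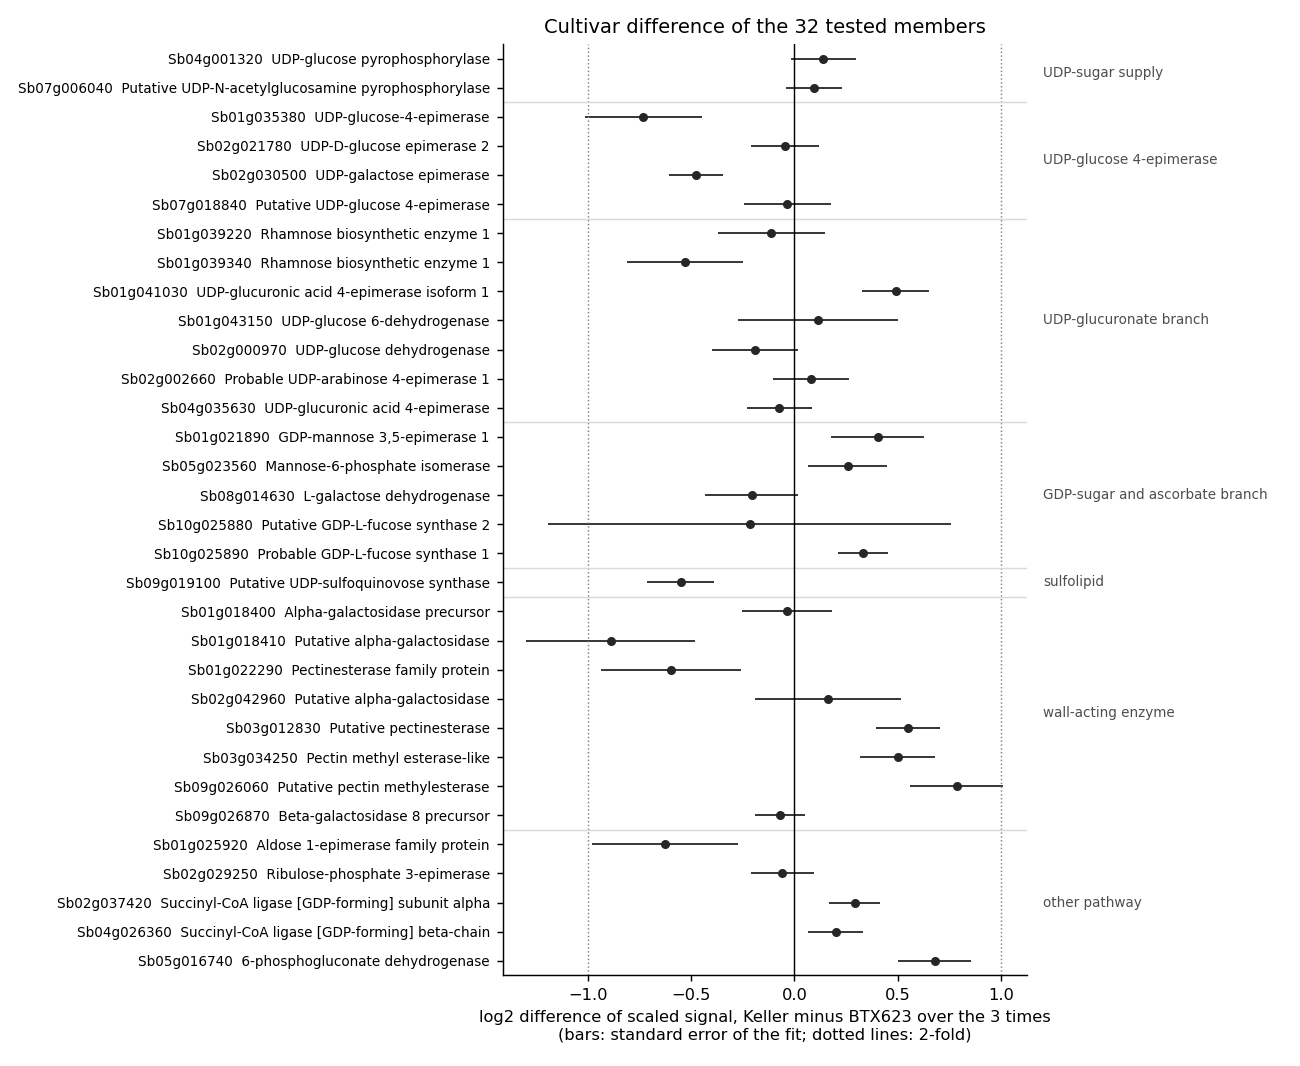
Log2 difference of the scaled signal, Keller minus BTX623 over the 3 times, for the 32 tested loci ordered by role, with bars for the standard error of the fit and dotted lines at 2-fold. All points lie between -0.89 and 0.79, inside the 2-fold lines.

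Other genes of the same pathways were taken from the carbohydrate list by their annotation, among them phosphoglucomutases, glycosyltransferases of family 8, pectate lyases and endoglucanases. Of these 20 loci, all were tested. None was called at 6 h or at 2 h over both cultivars, where 4 and 1 of them had an unadjusted p under 0.05 (all tested probes, 9403 and 5867), with medians of 0.00 and -0.19. The nearest was the phosphoglucomutase family locus Sb03g028080, at -0.59 for 6 h (SE 0.13, adjusted p = 0.022), which is under 2-fold. A second locus for the UDP-glucose forming step, Sb02g032250 (UTP--glucose-1-phosphate uridylyltransferase), differed by -0.17 at 6 h (SE 0.19, adjusted p = 0.61), a difference that was not tested against that of Sb04g001320. Between the cultivars 1 of the 20 was called, 5% as in all tested probes. It was the family 8 glycosyltransferase Sb05g022970, with 19.5 and 11.9, 10.2 and 8.93, and 10.9 and 14.1 at 0 h, 2 h and 6 h in Keller, and 6.49 and 5.48, 5.15 and 4.13, and 4.26 and 5.92 in BTX623. All 6 Keller arrays lay above all 6 BTX623 arrays, and the locus was higher in Keller by 1.23 (SE 0.20, limma adjusted p = 0.0050).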

How the data were processed

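The authors extracted total RNA from whole seedlings, labelled it with Cy3 and hybridised it to custom Agilent arrays of 4 to a slide, with 2 biological replicates in each of 6 groups. The authors deposited the processed signal of Agilent Feature Extraction 10.7.1.1, an intensity that is background-subtracted and corrected for spatial trends but not normalized between arrays. A deposited matrix of intensity values equalled them in 100% of cells within rounding. Control spots and outlier spots were dropped, and the spots of probes printed repeatedly for technical checks were left out.

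The log2 signal was reduced by the log2 of the 75th percentile of the array. Of 41977 probes, 31947 that exceeded background clearly on both replicates of 1 or more groups were tested with limma 3.58.1 (R 4.3.3) in a model of 6 group means over all 12 arrays, with a variance trend. Adjusted p-values (Benjamini-Hochberg) cover all probes of a comparison. The code was tested on simulated data. Counts and figures were made with Python 3.11.15, pandas 2.3.3 and matplotlib 3.10.9. The number of arrays limits the precision, and p-values measure the spread between 2 replicates a group. No source used here ties an array to a planting.

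Same-numbered arrays deviated together in 15 of 15 pairs of groups (correlation 0.276 to 0.659), so calls that differ in the fit with a replicate block are given. Members, gene lists and thresholds were chosen with earlier results of these data known. Values on every array are given for loci called in a comparison, for neighbouring loci, for the 3 with the largest change in each direction at 6 h and between the cultivars, and for the brightest locus of a role with no call. The loci shown for their split replicates at 0 h were chosen after their values were seen. The Rubisco and malic enzyme loci and the root cap loci served as leaf and root markers. Coordinates come from the study's gene lists. The locus names had no match in the reference gene table used here, so no sequence is shown.

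The alternatives were quantile normalization, normexp background correction (offset 50), the matrix without scaling, testing all probes or those above background on all 12 arrays, no variance trend, a fit of only the arrays compared, blocks for slide or replicate, an adjusted p under 0.01, no fold minimum, and the omission of each array in turn. The lone array then left in a group takes its variance from the other groups.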

Additional observations from a re-analysis of the deposited data

Results flagged for a closer look

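Among the 4 arrays of each time, 96 sets of 4 were checked for an array that stands apart from the other 3, by the ratio of its gap to the range on the log2 scale, set against Dixon's critical value. Chance alone marks about 1 in 20 such sets, and 4 of 96 were marked. Sb01g025920 (aldose 1-epimerase family) had a scaled signal of 7.85 in Keller 0 h replicate 1, the lowest of the 0 h arrays, at a ratio of 0.963. Sb01g039220 (rhamnose biosynthetic enzyme) had 735 in Keller 6 h replicate 1, the lowest at 6 h, at 0.917. Sb04g001320 (UDP-glucose pyrophosphorylase) had 72.7 in BTX623 2 h replicate 1, the lowest at 2 h, at 0.954. Sb10g025880 (GDP-L-fucose synthase) had 90.2 in Keller 2 h replicate 2, the lowest at 2 h, at 0.946. No difference between the cultivars in a change over time was called.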

How the results depend on the processing

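No called result changed sign under any alternative. Over both cultivars, the 4 loci called at 6 h stayed 4 with no filter, a filter over all 12 arrays, quantile normalization, no variance trend, only the arrays compared, no fold minimum and an adjusted p under 0.01. The count was 3 with normexp, which took Sb02g030500 to -0.90, 5 with the replicate block and 6 with the slide as a block, which added Sb01g022290 and Sb02g042960. Of all tested probes, 9.12% were called at 6 h in the fit without a block, 13% with the replicate block, 13.5% with the slide block, 5.64% with normexp and 3.93% at an adjusted p under 0.01. With the matrix without scaling the count was 0, with 3.57% of all tested probes called and the 4 loci at -0.95 to -1.70. The 6 h counts within BTX623 and within Keller were also 0, against 0.441% and 0.513% of all tested probes. That setting put the median 6 h difference of all tested probes at 0.34 in BTX623 and -0.08 in Keller, against 0.02 and 0.03 with scaling. The 2 h count of 1 was 2 with the replicate block, with the slide as a block and with no fold minimum, and 0 with an adjusted p under 0.01. At 2 h these settings called 5.64%, 5.49%, 2.98% and 0.488% of all tested probes, in that order. Within BTX623 the 6 h count of 4 was 0 with an adjusted p under 0.01, where 0.288% of all tested probes were called. Within Keller the count of 2 was 1 with normexp (1.43% of all tested probes), no filter (1.39%) and no variance trend (1.88%). It was 0 with an adjusted p under 0.01 (0.269%). With only the arrays compared both counts were 0, and none of all tested probes was called within either cultivar (0%). With 1 array left out, the counts ran from 3 to 6 at 6 h, from 0 to 2 at 2 h, from 0 to 3 for 6 h in BTX623, from 0 to 2 for 6 h in Keller, and from 0 to 1 for the cultivars over the times and for the cultivars at 0 h. The cultivar difference of the 6 h change stayed at 0 in every setting, and the replicate block left the cultivar counts at 0. The cause of these differences was not tested. With 2 arrays a group, calls within 1 cultivar, at log2 differences of -1.32 to -2.02, were lost when 1 of the arrays compared was left out. Each such fit had a lone array in a group and called fewer of all tested probes at 6 h too.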
